A study of Caenorhabditis elegans with 15 samples.

Results

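Glycerol synthesis and osmotic response genes were examined in whole nematodes (Caenorhabditis elegans). The set was listed by name as gpdh-1, gpdh-2, hmit-1.1, hmit-1.2, hmit-1.3, osm-7, osm-8, osm-11, osr-1 and gck-3, and its members were the rows of the expression table whose protein annotation carries one of these names. Of the 10 names, 7 were found among the 16196 genes of the table. The row of osr-1 carries that name only in a second annotation column, so this gene is described beside the 7 and is left out of their counts. hmit-1.2 and osm-8 were not analysed here.

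Worms on a hypertonic medium lose water and regain volume by building up glycerol, their main organic osmolyte. Glycerol-3-phosphate dehydrogenase turns a glycolytic intermediate into glycerol 3-phosphate, from which a phosphatase releases glycerol, and the gene for the inducible form, gpdh-1, is widely used as a reporter of osmotic stress in the intestine and epidermis. Secreted and cuticle proteins of the epidermis, among them OSM-7, OSM-8 and OSM-11, hold this response down, since worms that lack them accumulate glycerol without any stress.

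All worms were wild-type N2 at the L4 stage, grown on agar plates with Escherichia coli OP50, and RNA of the whole body was sequenced. The 5 groups, with 3 libraries each, were an untreated control, sucrose at 400 mM, stearic acid alone, sucrose with stearic acid (sucrose-stearic acid), and both with resveratrol (sucrose-stearic acid-resveratrol). The dose of stearic acid and of resveratrol is 500 in the sample labels and in the methods of the study, but the labels give it in mg/ml and the methods in μg/ml, and the title of a supplementary file gives resveratrol at another concentration. The study used sucrose and stearic acid as a high-sugar and high-lipid diet, and sucrose at this concentration also raises the osmolarity of the medium, so nutrient and osmotic effects of sucrose cannot be told apart in this design. No group received another osmolyte in place of sucrose. The study dissolved stearic acid in ethanol and resveratrol in DMSO before adding them to the medium. Whether the other plates received the same solvents is not stated. Effects of these solvents therefore cannot be told apart from those of stearic acid and of resveratrol.

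Counts per library summed to between 19433436 and 21400063. Levels are given as FPKM, fragments scaled to transcript length and to the mapped fragments of the library, which allows genes of different length to be compared. Changes between groups were tested on the counts with the quasi-likelihood test of edgeR, and a gene was called when its Benjamini-Hochberg adjusted p over all genes tested was 0.05 or less and its change was at least 2-fold. All 7 genes and osr-1 passed the filter on low counts in every comparison. The study describes the 3 libraries of a group as biological replicates. Fewer cells of a type and less RNA per cell cannot be told apart in whole-body samples.

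With sucrose, RNA of the inducible dehydrogenase, of its paralog and of a transporter was higher than in control. gpdh-1, gpdh-2 and hmit-1.1, which encodes a proton-coupled myo-inositol transporter homolog, were called higher in the sucrose group than in control, which makes 3 of the 7 genes, against 9.18% of the 12745 genes tested that were called in either direction and 3.78% called higher. By the adjusted p alone, without the fold minimum, 5 of the 7 passed, all of them higher, against 18.4% of genes in either direction. The median log2 fold change of the 7 genes was 0.65 and that of all genes tested was −0.02. In 5 of the 7 genes, and in osr-1, all 9 libraries with sucrose lay above all 6 libraries without it, an arrangement seen in 5.44% of the 13177 genes that passed the filter over all libraries.

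gpdh-1 (gene3956, WBcel235 chromosome I, 14075837 to 14078211, plus strand) encodes the stress-inducible glycerol-3-phosphate dehydrogenase. Its level was 16.5, 10.3 and 11.5 FPKM in the control libraries and 94.4, 102.1 and 72.5 FPKM in the sucrose libraries. The lowest sucrose library was far above the highest control library. The log2 fold change was 2.82 ± 0.19 (SE), a 7.04-fold rise (adjusted p = 2.3e-05, n = 3 and 3, edgeR). Its exons share 73 of 1308 bases with those of gadr-6 on the other strand, whose counts were 325 to 385 in control and 321 to 380 in the sucrose group, and whether reads were counted by strand is not given in the sources used here.

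gpdh-2 (gene12260, chromosome III, 9854079 to 9859183, minus strand) encodes the paralogous enzyme. Its level was 273.5, 237.0 and 221.8 FPKM in control and 527.3, 546.4 and 619.1 FPKM in the sucrose group. The groups were again apart, with a smaller rise from a higher base. The log2 fold change was 1.18 ± 0.13 (SE), or 2.27-fold (adjusted p = 0.00028, edgeR). In mean FPKM the control worms held 19.1 times as much gpdh-2 as gpdh-1 RNA, and the sucrose worms 6.29 times as much. The share of gpdh-1 in the summed mean FPKM of both genes thus went from 4.97% to 13.7%, while that sum went from 256.9 to 653.9 FPKM.

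hmit-1.1 (gene39987, chromosome V, 18516789 to 18523875, plus strand) lies beside its paralog hmit-1.2. Its level was 14.2, 14.9 and 14.5 FPKM in control and 271.7, 277.2 and 330.3 FPKM in the sucrose group. Control libraries were close to each other, and each sucrose library stood far above them. The log2 fold change was 4.24 ± 0.13 (SE), or 18.9-fold, with the smallest p of all 12745 genes tested (adjusted p = 1.1e-06, edgeR). How reads shared with hmit-1.2 were assigned is not given in the sources used here.

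hmit-1.3 (gene10211, chromosome III, 3510962 to 3516762, minus strand), the third transporter of the family and known from the intestine, rose much less. Its level was 31.5, 29.9 and 26.9 FPKM in control and 36.5, 40.1 and 52.1 FPKM in the sucrose group, so that the groups did not overlap but the sucrose libraries were spread out. The log2 fold change was 0.57 ± 0.17 (SE), under 2-fold (adjusted p = 0.044, edgeR). Leaving out any library other than sucrose replicate 1 raised the adjusted p to between 0.063 and 0.17, the highest without sucrose replicate 3. In control, hmit-1.3 RNA was 2.02 times hmit-1.1 in mean FPKM, and in the sucrose group hmit-1.1 was 6.84 times hmit-1.3.

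**Figure D1:**
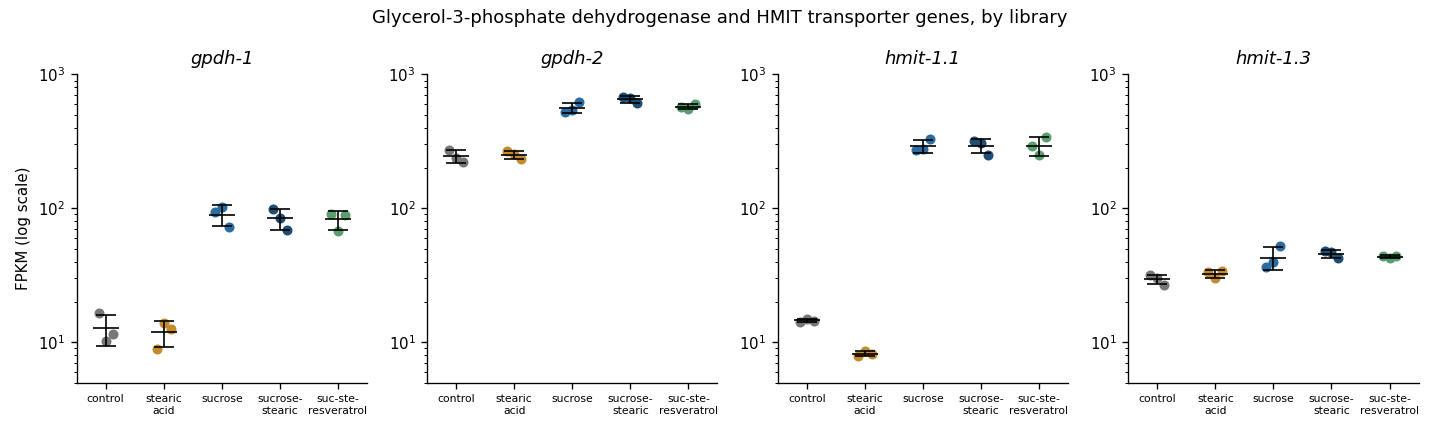
FPKM on a log scale for gpdh-1, gpdh-2, hmit-1.1 and hmit-1.3, with 1 point per library and the mean ± SD of the 3 libraries of each group in black. All 9 libraries with sucrose lie above the 6 without it for each of the 4 genes, from 67.2 FPKM upwards against at most 16.5 for gpdh-1, and hmit-1.1 is lowest in the stearic acid group.

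Of the 3 osmoregulatory genes in the set, osm-7 was the one that passed the adjusted p in the sucrose group, and without reaching 2-fold. osm-7 (gene13155, chromosome III, 13576182 to 13580662, plus strand) encodes a secreted protein of the family of Notch co-ligands that includes OSM-11. Its level was 16.01, 18.8 and 16.7 FPKM in control and 26.7, 24.9 and 27.004 FPKM in the sucrose group. These groups did not overlap, and the log2 fold change was 0.65 ± 0.12 (SE), or 1.57-fold (adjusted p = 0.005, edgeR).

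osm-11 (gene46662, chromosome X, 17420211 to 17421468, minus strand), the co-ligand best known for its osmotic role, had the highest FPKM of the set in every group. Its level was 887.7, 741.2 and 662.2 FPKM in control and 670.5, 659.5 and 725.1 FPKM in the sucrose group. The groups overlapped, with a log2 fold change of −0.10 ± 0.11 (SE) and an adjusted p of 0.57 (edgeR).

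gck-3 (gene39794, chromosome V, 17953886 to 17966847, minus strand) encodes a kinase of the Ste20 type that acts with WNK-1, restrains the chloride channel CLH-3 and is needed for glycerol accumulation. Its level was 62.8, 53.2 and 55.3 FPKM in control and 64.99, 57.7 and 63.2 FPKM in the sucrose group. The libraries overlapped, with a log2 fold change of 0.13 ± 0.11 (SE) and an adjusted p of 0.48 (edgeR).

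osr-1 (gene1133, chromosome I, 5200259 to 5203504, minus strand) is a gene whose loss makes worms resistant to hypertonic medium. Its level was 8.25, 8.55 and 9.86 FPKM in control and 12.8, 14.1 and 15.9 FPKM in the sucrose group. The groups were apart, and the log2 fold change was 0.67 ± 0.15 (SE), or 1.59-fold (adjusted p = 0.015, edgeR). The adjusted p was 0.055 without control replicate 2, 0.065 without sucrose replicate 2 and 0.067 without sucrose replicate 3.

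**Figure D2:**
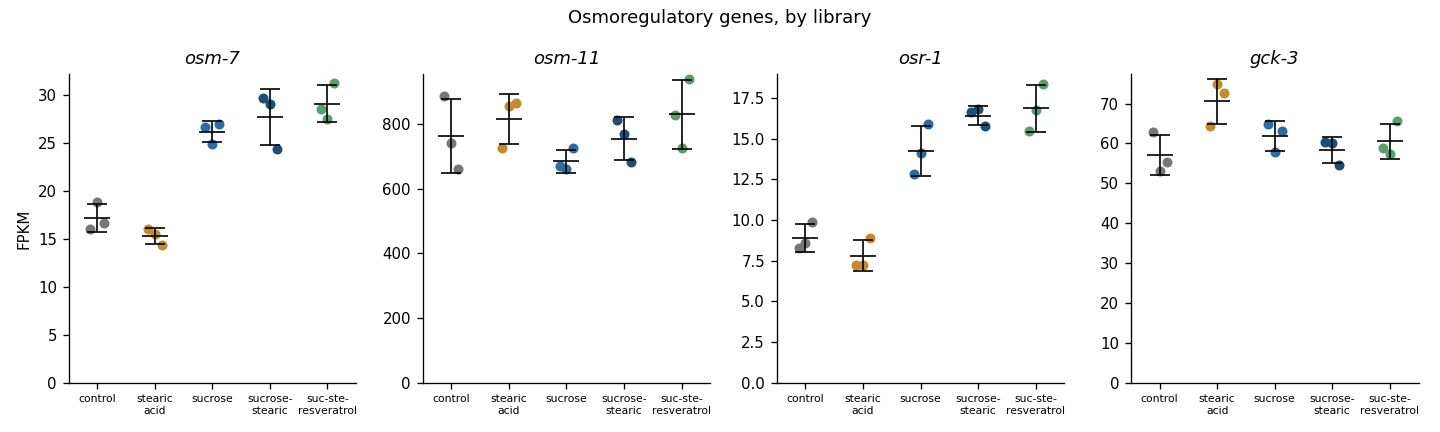
FPKM on a linear scale for osm-7, osm-11, osr-1 and gck-3, with 1 point per library and the mean ± SD of each group in black. For osm-7 and osr-1 the 9 libraries with sucrose lie above the 6 without it (24.3 FPKM and more against at most 18.8 for osm-7), and for osm-11 and gck-3 they overlap.

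The set responded to sucrose in worms given stearic acid as well. The comparison of the sucrose-stearic acid group with the stearic acid group shares no library with that of sucrose and control. The same 3 genes, gpdh-1, gpdh-2 and hmit-1.1, were called higher, against 9.95% of 12714 genes called in either direction and 3.75% called higher. gpdh-1 was at 8.93, 13.99 and 12.6 FPKM with stearic acid alone and at 99.0, 84.5 and 69.0 FPKM with both, a log2 fold change of 2.64 ± 0.16 (SE, adjusted p = 1.8e-07, edgeR). gpdh-2 was at 269.5, 252.6 and 234.0 FPKM and at 680.8, 672.1 and 610.4 FPKM, a log2 fold change of 1.56 ± 0.10 (SE, adjusted p = 1.7e-07, edgeR). Neither gene had overlapping groups.

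hmit-1.1 was at 7.91, 8.64 and 8.10 FPKM with stearic acid alone and at 320.1, 304.9 and 252.1 FPKM with both nutrients. This was a log2 fold change of 5.13 ± 0.11 (SE), or 35.1-fold (adjusted p = 7e-11, edgeR). Its change was the fourth highest and its p the second smallest of 12714 genes. hmit-1.3 rose by a log2 fold change of 0.66 ± 0.10 (SE, adjusted p = 0.00027) and osm-7 by 0.73 ± 0.10 (SE, adjusted p = 0.00011), both under 2-fold. By the adjusted p alone, 6 of the 7 genes passed, 5 of them higher and 1, osm-11, lower, against 34.1% of genes in either direction.

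osr-1, at 7.24 to 8.92 FPKM with stearic acid and 15.8 to 16.8 FPKM with both, was 2.29-fold higher (log2 fold change 1.2 ± 0.11 SE, adjusted p = 5.1e-06, edgeR). With limma on log2(FPKM + 1) this log2 fold change was 0.99, just under 2-fold. osm-11 was lower on the counts, by a log2 fold change of −0.45 ± 0.10 (SE, adjusted p = 0.0033, edgeR), but its FPKM values overlapped, at 725.4, 854.9 and 864.7 with stearic acid and 811.5, 769.4 and 681.1 with both, and limma on log2(FPKM + 1) gave −0.11 and an adjusted p of 0.46. gck-3 did not pass, with −0.21 ± 0.09 (SE) and an adjusted p of 0.082, or 0.037 without stearic acid replicate 1.

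The 2 remaining groups with sucrose can also be set against the control, whose libraries they share with the first comparison. Called in the sucrose-stearic acid group were again gpdh-1, gpdh-2 and hmit-1.1, against 9.57% of genes in either direction and 4.31% called higher, with log2 fold changes of 2.64, 1.52 and 4.22. In the resveratrol group the same 3 genes were called, against 9.26% and 3.82% called higher, with log2 fold changes of 2.61, 1.27 and 4.23. By the adjusted p alone 5 of the 7 passed in each, against 19.9% and 17.7% of genes. In both comparisons hmit-1.3 and osm-7 passed the adjusted p below 2-fold, with log2 fold changes of 0.78 and 0.67 in the first and 0.62 and 0.74 in the second. The mean FPKM of hmit-1.1 was 293 ± 32 (SD, n = 3) with sucrose, 292 ± 36 (SD, n = 3) with sucrose-stearic acid and 294 ± 46 (SD, n = 3) with resveratrol, which are levels within each other's spread.

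**Figure D3:**
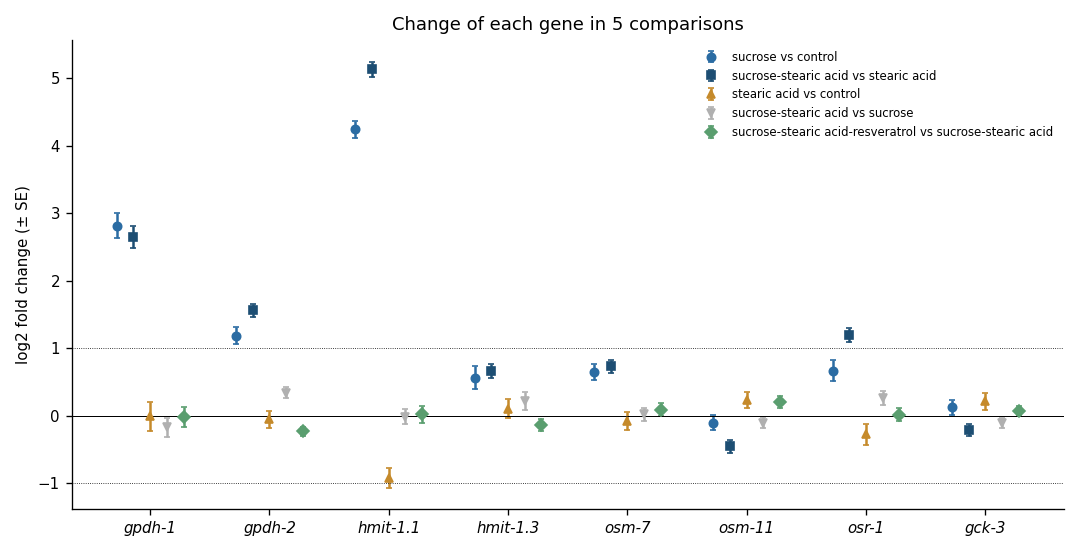
Log2 fold change ± SE from edgeR for the 7 genes and osr-1 in 5 comparisons, with dotted lines at 2-fold. The 2 comparisons that add sucrose (blue) are highest for hmit-1.1, at 4.24 and 5.13, and lowest for osm-11, at −0.10 and −0.45, and the 2 comparisons that add a further compound to sucrose lie between −0.23 and 0.34 for every gene.

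Stearic acid alone left the set largely where it was, apart from hmit-1.1. None of the 7 genes was called against control by edgeR, DESeq2 or limma, where 7.88% of 12772 genes were called by edgeR, and 1 of the 7 had an unadjusted p of 0.05 or less. hmit-1.1 passed the adjusted p without reaching 2-fold, at 14.2, 14.9 and 14.5 FPKM in control and 7.91, 8.64 and 8.10 FPKM with stearic acid. The groups did not overlap, and the log2 fold change was −0.92 ± 0.15 (SE), or 1.89-fold lower (adjusted p = 0.0011, edgeR). Without the fold minimum, 22.6% of genes passed in this comparison. The other 6 genes had log2 fold changes between −0.08 and 0.23, with adjusted p of at least 0.18, and osr-1 had −0.28 ± 0.16 (SE, adjusted p = 0.22).

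The response of hmit-1.1 to sucrose was larger in the presence of stearic acid. The difference between the 2 changes by sucrose, an interaction term, was tested over the 12 libraries of 4 groups, and 15.6% of 13094 genes passed the adjusted p alone. hmit-1.1 was the 1 of the 7 genes that passed, with a difference of 0.88 ± 0.15 (SE) in log2 fold change (adjusted p = 0.0018, edgeR). Its levels with sucrose and with sucrose-stearic acid overlapped, while those with stearic acid alone lay below control. osr-1 had a difference of 0.52 ± 0.16 (SE, adjusted p = 0.047), a call that was lost in 14 of 19 alternative analyses. For gpdh-1 the difference was −0.18 ± 0.27 (SE, adjusted p = 0.67) and for gpdh-2 0.37 ± 0.16 (SE, adjusted p = 0.13).

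No gene of the set was called by edgeR, DESeq2 or limma when stearic acid or resveratrol was added to sucrose. Between the sucrose-stearic acid and sucrose groups, 0.215% of 12582 genes were called. The largest change in the set was that of gpdh-2, at 0.34 ± 0.08 (SE) on the log2 scale with an adjusted p of 0.13 (edgeR; 0.0027 unadjusted), and the adjusted p was 0.033 by DESeq2 and 0.027 without sucrose replicate 3, at the same size of under 2-fold. The unadjusted p was 0.05 or less in 1 of the 7 genes and, beside them, in osr-1 (0.26 ± 0.11 SE). Between the groups with and without resveratrol, 0.0159% of 12591 genes were called, and every gene of the set had an adjusted p of 0.999. gpdh-2 was at 567.9, 555.3 and 599.5 FPKM with resveratrol, below the 3 values without it, with a log2 fold change of −0.23 ± 0.07 (SE, unadjusted p = 0.0079). osm-11 had 0.20 ± 0.09 (SE, unadjusted p = 0.044), and the other 5 genes had changes between −0.14 and 0.09, with unadjusted p of at least 0.13.

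In control worms the order of mean FPKM was osm-11 (764 ± 114, SD, n = 3), gpdh-2 (244 ± 27), gck-3 (57.1 ± 5.1), hmit-1.3 (29.5 ± 2.3), osm-7 (17.2 ± 1.5), hmit-1.1 (14.6 ± 0.36), gpdh-1 (12.8 ± 3.3) and osr-1 (8.89 ± 0.86). The libraries of hmit-1.1 and gpdh-1 overlapped, and those of the other neighbours in this order did not, gpdh-1 and osr-1 included. With sucrose, hmit-1.1 (293 ± 32) moved to the third place and gpdh-1 (89.7 ± 15.3) to the fourth, above gck-3 (62.0 ± 3.8). The gap between osm-11 (685 ± 35) and gpdh-2 (564 ± 48) had narrowed, with the libraries of these 2 genes still apart. The order was the same in the sucrose-stearic acid group, where the libraries of osm-11 (754 ± 67) and gpdh-2 (654 ± 38) were just apart.

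Other genes of glycerol turnover were taken from a list of 5, of which 4 had a row. The glycerol-3-phosphate phosphatase homologs pgph-1 and pgph-2, whose kind of enzyme catalyses the step after glycerol-3-phosphate dehydrogenase, were both called higher with sucrose, as 2 of the 4 genes, against 9.18% of all genes called in either direction and 3.78% called higher. pgph-1 was at 22.4, 15.3 and 13.0 FPKM in control and 170.7, 187.4 and 219.9 FPKM with sucrose, a log2 fold change of 3.51 ± 0.22 (SE, adjusted p = 1.8e-05, edgeR). pgph-2 was at 33.4, 74.1 and 34.3 FPKM in control and 306.2, 374.3 and 324.2 FPKM with sucrose, a log2 fold change of 3.31 ± 0.11 (SE, adjusted p = 1.1e-06, edgeR). The FPKM of control replicate 2 was high, but its count of 748 was close to the 715 and 753 of the other control libraries.

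With stearic acid present, adding sucrose gave log2 fold changes of 2.67 ± 0.11 (SE) for pgph-1 and 3.28 ± 0.09 (SE) for pgph-2, both called (adjusted p = 7.6e-09 and 2.3e-10, edgeR). Both genes lie on chromosome V, from 5752352 to 5753532 and from 5770456 to 5771766, and reads common to such related genes could be divided between them. R11F4.1, a glycerol kinase, which turns glycerol back into glycerol 3-phosphate, was at 75.99 to 103.0 FPKM in control, 116.3 to 213.2 FPKM with sucrose and 154.5 to 214.5 FPKM with stearic acid. It passed the adjusted p with sucrose below 2-fold (0.78 ± 0.22 SE, adjusted p = 0.041), but not under limma (adjusted p of 0.070 and 0.072), nor without control replicates 1 or 2 or sucrose replicates 2 or 3 (0.064 to 0.13, the highest without control replicate 2). It was called against control in the sucrose-stearic acid and resveratrol groups, just past the fold minimum in each (2.02-fold in the latter), which makes 3 of the 4 genes in each (9.57% and 9.26% of all genes). Its log2 fold change with stearic acid alone was 0.98 ± 0.14 (SE, adjusted p = 0.00053). T25G3.4, the mitochondrial glycerol-3-phosphate dehydrogenase, had 0.24 ± 0.10 (SE, adjusted p = 0.13) with sucrose.

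**Figure D4:**
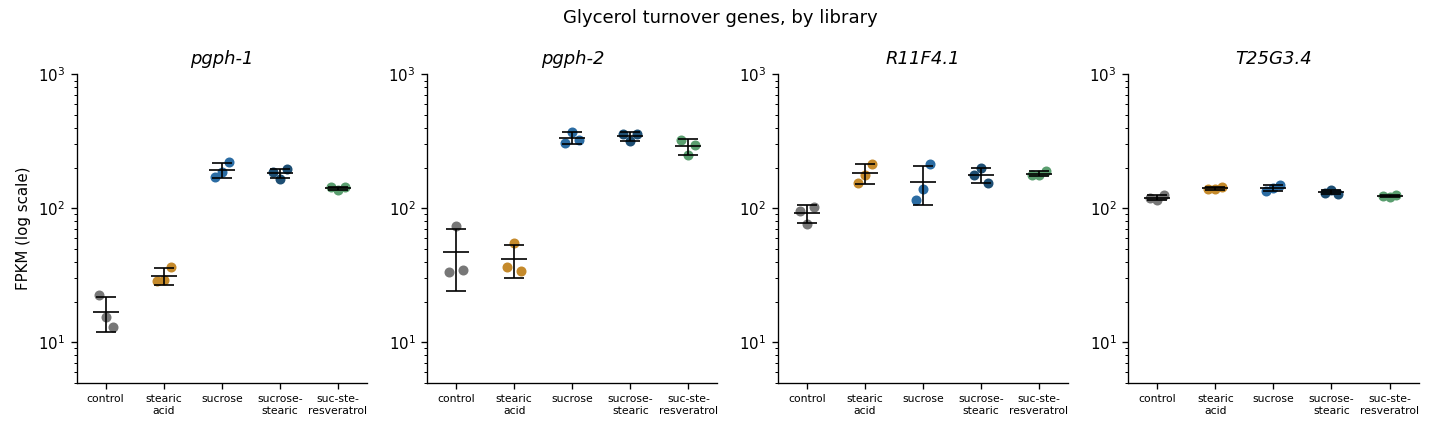
FPKM on a log scale for pgph-1, pgph-2, R11F4.1 and T25G3.4, with 1 point per library and the mean ± SD of each group in black. pgph-1 and pgph-2 are at 137.0 FPKM or more in all 9 libraries with sucrose and at 74.1 FPKM or less in the 6 without it, and R11F4.1 is lowest in control.

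The 5 genes most like gpdh-1 over the 15 libraries, by the Pearson correlation of log2 counts scaled to library size among 13177 genes, were pgph-2 (r = 0.986), hmit-1.1 (r = 0.978), K11H12.7 (r = 0.977), F11E6.4 (r = 0.976) and W02H5.8 (r = 0.974). For hmit-1.1 they were pgph-2 (r = 0.987), tag-293 (r = 0.983), srlf-1 (r = 0.982), sqt-2 (r = 0.981) and F11E6.4 (r = 0.981). Within the set, the correlation with gpdh-1 was 0.954 for gpdh-2, 0.938 for osm-7, 0.921 for osr-1, 0.847 for hmit-1.3, −0.51 for osm-11 and −0.07 for gck-3. These values describe the samples, whose 9 libraries with sucrose and 6 without form separate clusters for gpdh-1, and are given without a p.

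Among 17 regulators and partners of the osmotic response, 13 had a row, and with sucrose against control 1 of them was called higher and 1 lower, against 9.18% of all genes called, a share near that of the 13. The gene called higher was dos-1, which belongs to the same co-ligand family as osm-7 and osm-11, at 6.999, 7.01 and 6.47 FPKM in control and 24.8, 26.5 and 23.4 FPKM with sucrose. Its log2 fold change was 1.94 ± 0.18 (SE, adjusted p = 0.00012, edgeR), and 2.97 ± 0.24 (SE, adjusted p = 2e-06) between the sucrose-stearic acid and stearic acid groups. The gene called lower was dos-3, a further member of that family, at 2.36, 2.07 and 0.90 FPKM in control and 0.32, 0.34 and 0.44 FPKM with sucrose (log2 fold change −2.30 ± 0.41 SE, adjusted p = 0.0042). With limma on log2(FPKM + 1) the change of dos-3 was −0.98, below 2-fold. dos-2 had −0.09 ± 0.24 (SE, adjusted p = 0.83) with sucrose against control, and was called higher between the sucrose-stearic acid and stearic acid groups (1.37 ± 0.27 SE, adjusted p = 0.002). Its mean FPKM was low, at 3.56 in control, 3.33 with sucrose, 1.92 with stearic acid and 5.02 with both. Between the sucrose-stearic acid and stearic acid groups 2 of the 13 were called higher and 1 lower, against 9.95% of all genes called in either direction. By the adjusted p alone the potassium-chloride cotransporter genes kcc-1 (0.61 ± 0.12 SE, adjusted p = 0.0058) and kcc-2 (0.65 ± 0.14 SE, adjusted p = 0.012) were higher too with sucrose against control, below 2-fold. The mean FPKM of kcc-2 was 40.7 in control, 64.6 with sucrose and nearly as high, 63.2, with stearic acid alone. That of kcc-1 was 50.9, 76.9 and 62.9 in the same order.

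The cuticle collagens of the annular furrows, whose loss switches on gpdh-1 in worms, had rows for 4 of 6 genes, dpy-2, dpy-3, dpy-7 and dpy-8. None was called with sucrose against control, where their median log2 fold change was 0.27, and 1 of the 4, dpy-2, was called between the sucrose-stearic acid and stearic acid groups (1.02 ± 0.10 SE, adjusted p = 1.1e-05), against 9.95% of all genes. This call rested on the fold minimum, with log2 fold changes of 0.95 without stearic acid replicate 2 and 0.96 without sucrose-stearic acid replicate 2. In that comparison all 4 were higher by the adjusted p alone, which 34.1% of all genes passed, with dpy-7 at 0.90 ± 0.09 (SE, adjusted p = 9.6e-06), dpy-8 at 0.65 ± 0.10 (SE) and dpy-3 at 0.60 ± 0.11 (SE). With stearic acid alone all 4 were lower by the adjusted p, which 22.6% of all genes passed, at log2 fold changes of −0.46 to −0.57, and each lost this when 1 or more of the libraries was left out, the adjusted p reaching 0.15 for dpy-3 without stearic acid replicate 2.

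Aquaporins, the water and glycerol channels, had rows for 11 of 12 genes, 10 of them tested with sucrose against control. Of these, 3 were called higher and 1 lower, against 9.18% of all genes called and 3.78% called higher, and 1 more, aqp-8, was higher by the adjusted p alone. aqp-1, which passes glycerol, was at 25.04, 21.4 and 26.2 FPKM in control and 269.9, 351.5 and 467.2 FPKM with sucrose (log2 fold change 3.92 ± 0.22 SE, adjusted p = 1.3e-05). Unlike gpdh-1, it was also high with stearic acid alone, at 381.6 to 416.6 FPKM (3.97 ± 0.14 SE, adjusted p = 4.4e-09). aqp-7 also rose with each, by 1.73 ± 0.11 (SE) with sucrose and 1.37 ± 0.11 (SE) with stearic acid. aqp-3 fell with sucrose, by a log2 fold change of −2.36 ± 0.34 (SE, adjusted p = 0.0015). aqp-5 rose by 1.1 ± 0.31 (SE, adjusted p = 0.038), a call lost when any library was left out, with adjusted p of 0.051 to 0.14.

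aqp-8 varied between the groups in the same direction as hmit-1.1. The aquaporins as a list did not share this direction, since aqp-3 fell with sucrose and aqp-1 and aqp-7 rose with stearic acid. Mean FPKM of aqp-2 was 517 in control, 552 with sucrose, 556 with stearic acid and 501 with both. aqp-8 was at 121.9 to 148.7 FPKM in control, 208.2 to 218.6 with sucrose, 46.9 to 64.5 with stearic acid and 187.3 to 219.4 with both. The log2 fold change was 0.69 ± 0.11 (SE) with sucrose, −1.13 ± 0.14 (SE) with stearic acid and 1.66 ± 0.11 (SE) between the sucrose-stearic acid and stearic acid groups, with adjusted p of 0.0026, 0.0002 and 4.3e-07. The part of any tissue, or of its amount in the worms, in the values of hmit-1.1 and aqp-8 was not tested. Among 19 epidermal antimicrobial peptides 3 had a row and 1, cnc-8, was tested and called higher with sucrose (1.29 ± 0.29 SE, adjusted p = 0.014), with an adjusted p of 0.068 without sucrose replicate 2. Of 3 genes of trehalose synthesis, gob-1 alone had a row (0.14 ± 0.10 SE, adjusted p = 0.37).

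Markers of other tissues varied between the groups as well, with no single direction within the intestine list. None of the 7 intestine markers with a row was at 0 counts in any library, and their summed level was 5395 to 6890 CPM (counts scaled to library size) in control, 3986 to 4308 with sucrose, 6186 to 7526 with stearic acid and 4390 to 4922 with both. This sum is led by the protease gene asp-1, at a mean of 4748 FPKM in control and 2783 with sucrose (log2 fold change −0.75 ± 0.10 SE, adjusted p = 0.00079). With sucrose against control the median log2 fold change of the 7 was −0.02. In that comparison 1 of the 7 was called higher and 1 lower, against 9.18% of all genes called in either direction. The esterase gene ges-1 was the one called higher (1.3 ± 0.18 SE, adjusted p = 0.0011, edgeR). The peptide transporter gene pept-1 was the one called lower (−1.41 ± 0.23 SE, adjusted p = 0.0027, edgeR). Both genes had like levels with stearic acid alone. Mean FPKM in control, with sucrose and with stearic acid was 36.1, 89.1 and 94.0 for ges-1 and 166.1, 63.2 and 58.6 for pept-1.

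The 4 epidermis markers summed to 153 to 184, 195 to 206, 141.8 to 151.1 and 182 to 207 CPM in the same order of groups, and none was called with sucrose against control. The 5 vitellogenin genes, which encode yolk proteins, summed to 4216 to 6000 CPM in control, 10190 to 11080 with sucrose, 6802 to 8929 with stearic acid and 5247 to 6581 with both, although the worms were labelled L4. vit-2 was the 1 of these 5 called with sucrose against control (1.54 ± 0.15 SE, adjusted p = 0.00017, edgeR). Of all genes 9.18% were called there in either direction and 3.78% higher. With stearic acid against control 1 of the 5 was called higher and 2 lower, against 7.88% of all genes called in either direction. Their median log2 fold change there was −0.49, so the higher sum did not hold for every member. Of 25 listed sperm protein genes 6 had a row, of which msp-152 was at 0 in some libraries. These 6 summed to 17.2 to 30.9 CPM in control, 12.2 to 13.6 with sucrose, 11.7 to 15.2 with stearic acid and 13.8 to 15.3 with both. With sucrose against control 3 of 5 tested, msp-3, msp-38 and msp-49, were called lower, against 9.18% of all genes called in either direction. With stearic acid against control 3 of 5 tested were called lower as well, against 7.88%. With sucrose-stearic acid against control 0 of 4 tested were called. Neuron markers summed to 413 to 703 CPM in control, 606 to 747 with sucrose, 933 to 1051 with stearic acid and 519 to 754 with both. Muscle markers were at 4578 to 6306, 4877 to 5411, 5418 to 6273 and 3824 to 4871 CPM in the same order, and germline markers at 509.7 to 819, 375 to 517, 373 to 443 and 412 to 486 CPM. The part of these differences in the values of the set was not tested.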

How the data were processed

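The authors prepared TruSeq libraries, sequenced them on an Illumina HiSeq instrument, mapped clean reads with TopHat to the C. elegans reference of RefSeq, which is WBcel235, and calculated FPKM with Cufflinks. The counter, its use of strand and its handling of reads with several places are not given in the sources used here. The deposited table holds raw counts and FPKM values per gene and library. The authors' columns of FDR and log2 fold change between groups, and their own comparison tables, were not used.

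The 10 names were matched in the protein annotation, and coordinates came from the RefSeq gene table of WBcel235. Other genes were named through that annotation and table, for 15315 of 16196 rows, and 222 rows that share a name were not looked up by name. The members and lists were chosen with earlier results of these data known. All members with a row are named. Genes of the other lists could be named where called in a comparison that adds sucrose or where a list has 6 genes or fewer, and tissue markers are given mainly as sums. kcc-1, kcc-2 and asp-1 were named after their values were seen.

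The counts were tested with edgeR 4.0.16 in R 4.3.3 (filterByExpr, TMM, quasi-likelihood F test) on the 6 libraries of the 2 groups compared, or on 12 libraries for the interaction, and p-values were adjusted over all genes tested. The thresholds were an adjusted p of 0.05 and 2-fold, and no fold minimum for the interaction. Log2 fold changes were computed here from the deposited counts. Alternatives were DESeq2 1.42.0, limma 3.58.1 on log2(FPKM + 1) and log2(FPKM + 0.1), other scaling, no filter, a fit over all 15 libraries, other thresholds, a replicate block and leaving out each library. The test was checked on simulated data. An exact permutation test of 3 against 3 libraries cannot give a p below 0.1 and was not used. The replicate numbers of the labels were checked by correlating deviations from group means. Control with sucrose-stearic acid had all 3 correlations over 0.1 (0.12, 0.20 and 0.36), and no other pair of groups did. Control replicate 1 nevertheless correlated better with a sucrose-stearic acid library of another number. Stearic acid libraries each correlated best with the resveratrol library of their own number, but only at 0.048, 0.096 and 0.103. Whether the numbers pair the libraries cannot be told from these values, and no batch is stated. No sequences are shown.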

Additional observations from a re-analysis of the deposited data

Results flagged for a closer look

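The change of hmit-1.1 by sucrose differed between worms with and without stearic acid, by 0.88 on the log2 scale, and the adjusted p stayed between 2.2e-05 and 0.0095 over 19 alternatives. Its level fell with stearic acid alone and overlapped between the groups with sucrose.

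The same difference for osr-1 was 0.52 on the log2 scale. Its adjusted p of 0.047 moved to between 0.025 and 0.18 over the alternatives.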

How the results depend on the processing

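The counts of called genes in the set kept their value of 3, 3, 3 and 3 in the comparisons that add sucrose and of 0 in the others under every alternative of scaling, filter, test and library, and with an adjusted p of 0.01, so that no alternative but the removal of the fold minimum changed them. Without that minimum they were 5 with sucrose, 1 with stearic acid, 5 with sucrose-stearic acid and 5 with resveratrol, each against control, and 6 between the sucrose-stearic acid and stearic acid groups. For the interaction the count was 1, and 1 to 2 when a library was left out, the second gene being gck-3 without control replicate 1 (−0.44, adjusted p = 0.032). The replicate block left each count as it was, and took osr-1 out of the interaction (0.52, adjusted p = 0.055). It also moved the adjusted p of hmit-1.3 and osr-1 with sucrose to 0.13 and 0.053, where same-numbered libraries do not deviate together.

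Signs changed only for values that were not called. With limma on log2(FPKM + 1) and log2(FPKM + 0.1) alike, these were gpdh-2 (0.0491 and 0.0493) and pgph-2 (−0.11) with stearic acid against control, osm-11 with resveratrol against control (0.12) and in sucrose-stearic acid against sucrose (0.14), R11F4.1 (−0.0361 and −0.0363), T25G3.4 (−0.0899 and −0.0906) and aqp-1 (−0.0306 and −0.0307) in sucrose-stearic acid against stearic acid, and, for the interaction, hmit-1.3 (−0.0263 and −0.0277), osm-11 (0.0360 and 0.0360, against −0.36 ± 0.15 SE with edgeR) and gpdh-1 (0.0035 and 0.0095). Leaving out 1 library gave ranges, with stearic acid against control, of −0.13 to 0.20 for gpdh-1, −0.13 to 0.0586 for gpdh-2, −0.13 to 0.0103 for osm-7, −0.0073 to 0.0555 for pgph-2 and −0.58 to 0.10 for aqp-5. They were −0.0469 to 0.12 for gck-3 with sucrose-stearic acid and −0.13 to 0.0687 for osm-11 with resveratrol against control, −0.0843 to 0.0784 for hmit-1.1 and −0.0275 to 0.0968 for osm-7 in sucrose-stearic acid against sucrose, and −0.0857 to 0.13 for R11F4.1 in sucrose-stearic acid against stearic acid. Adding resveratrol gave −0.12 to 0.12 for gpdh-1, −0.10 to 0.12 for hmit-1.1 and −0.0512 to 0.0759 for osr-1, and the interaction −0.0328 to 0.25 for hmit-1.3. The cause of these changes was not tested. With 3 libraries a group, changes of about the size of the SE cannot be told from 0.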
